A study of Homo sapiens with 8 samples.

Results

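Activins and the transforming growth factors beta (TGF-beta) are secreted dimers of 1 protein superfamily, and 10 genes of their pathway were followed here: the ligand genes INHBA, INHBB, TGFB1 and TGFB2, the ligand antagonist genes FST and FSTL3, the receptor gene TGFBR2, the inhibitory genes BAMBI and SMAD7 and the target gene TGFBI. They were picked by name for their roles, with earlier results of these data known but not by a threshold on their values. They come from 18404 genes measured on 8 arrays, and all 10 were on the arrays with a single probe set each. The cells were COLO829, an established human melanoma line with an activating BRAF mutation. Every culture was infected with a pGIPZ vector, whose short hairpin RNA either targeted MITF, which encodes a transcription factor that governs melanocyte identity, or had a scrambled sequence, and was selected with puromycin for 2 days. Cells then received 1 µM of the mutant-BRAF inhibitor PLX4032, also called vemurafenib, for 24 h, or DMSO as its control. The 4 groups of 2 arrays, lettered A and B, are called scrambled DMSO, scrambled PLX4032, knockdown DMSO and knockdown PLX4032 cells below. Whether A and B came from separate cultures is not stated in the labels, and the p-values therefore reflect no more than the scatter among these samples, part of which could be technical. The labels name a single cell line and a single MITF hairpin vector.

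A ligand dimer of this family brings together type II and type I receptor kinases on the cell surface, which phosphorylate SMAD proteins that then enter the nucleus with SMAD4 and regulate transcription. Activin and TGF-beta use different receptor pairs but the same receptor-regulated SMADs, whereas bone morphogenetic proteins (BMPs) use another set. The pathway is restrained by secreted proteins that trap ligand, by decoy receptors and by inhibitory SMADs, several of which are themselves targets of the pathway. In melanoma, TGF-beta and activin signalling has been linked to the invasive state with low MITF.

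Levels are log2 intensities as deposited, where a step of 1 is a doubling, and changes are differences of group means on that scale ± SE from limma, fitted over all 8 arrays (2 arrays per group). A change was called at a Benjamini-Hochberg adjusted p under 0.05 over all 18404 genes of the comparison. MITF, the targeted gene, fell by 0.93 ± 0.080 on knockdown in DMSO (adjusted p = 8.28e-06) and by 0.76 ± 0.080 in PLX4032 (adjusted p = 3.02e-05). The inhibitor itself moved MITF upward, a called change of 0.39 ± 0.080 with the scrambled hairpin and 0.56 ± 0.080 with the MITF hairpin. Cells with both perturbations had a mean MITF level of 10.08, against 10.45 in scrambled DMSO cells. That called difference of -0.38 ± 0.080 is a smaller loss of MITF RNA than knockdown gave in DMSO. Of 2 outputs of BRAF signalling, in scrambled cells with PLX4032 DUSP6 fell by 2.68 ± 0.084 (adjusted p = 6.06e-09) and SPRY4 fell by 4.50 ± 0.10 (adjusted p = 7.63e-10). Of 7 measured melanocyte lineage markers, 5 to 7 per group read above the median gene, against 1 of 8 fibroblast markers, 0 of 5 keratinocyte markers, 1 of 5 endothelial markers and 0 to 1 of 6 leukocyte markers. The summed log2 level of the fibroblast markers was 44.1 to 45.6 over the groups. Of the lineage markers, 4, among them MITF itself, fell and 1 rose on knockdown in DMSO, where 18.8% of all genes fell and 14.4% rose. With PLX4032 in scrambled cells 6 rose, where 17.3% of all genes rose. The median SE of a change over all genes was 0.0939, and 0.133 for a difference between changes. Arrays of a group correlated between 0.9973 and 0.9984 over genes.

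The promoter windows of the 5 genes whose levels spread most over the groups (INHBA, FST, TGFBR2, BAMBI and TGFB2) are shown because they are the stretches next to the genes whose RNA moved. Each holds 250 bases before and 50 after an annotated RefSeq transcript start on GRCh38.p14, 5′ to 3′ on the gene's strand. The windows are chr7:41703041-41703340 on the minus strand for INHBA, and on the plus strand chr5:53480379-53480678 for FST, chr3:30606351-30606650 for TGFBR2 (the downstream of 2 annotated windows), chr10:28677271-28677570 for BAMBI and chr1:218345086-218345385 for TGFB2. Capitals mark matches on either strand to 5 short motifs: CAGACA (the CAGA box bound by SMAD3 and SMAD4), CACGTG and CATGTG (E-boxes of the kind MITF binds), TGANTCA (AP-1) and GGAAGT (ETS factors).
INHBA: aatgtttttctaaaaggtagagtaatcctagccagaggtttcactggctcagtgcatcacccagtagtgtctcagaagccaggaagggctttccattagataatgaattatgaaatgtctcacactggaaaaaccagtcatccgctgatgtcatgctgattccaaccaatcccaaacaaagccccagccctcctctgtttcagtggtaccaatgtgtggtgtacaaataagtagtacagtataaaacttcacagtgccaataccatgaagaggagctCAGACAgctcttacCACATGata
FST: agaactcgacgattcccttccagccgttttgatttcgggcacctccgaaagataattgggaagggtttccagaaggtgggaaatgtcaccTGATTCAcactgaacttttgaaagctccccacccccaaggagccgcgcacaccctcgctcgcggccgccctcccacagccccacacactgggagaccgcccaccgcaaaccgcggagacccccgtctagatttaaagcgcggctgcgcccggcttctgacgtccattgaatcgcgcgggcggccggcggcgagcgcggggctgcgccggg
TGFBR2: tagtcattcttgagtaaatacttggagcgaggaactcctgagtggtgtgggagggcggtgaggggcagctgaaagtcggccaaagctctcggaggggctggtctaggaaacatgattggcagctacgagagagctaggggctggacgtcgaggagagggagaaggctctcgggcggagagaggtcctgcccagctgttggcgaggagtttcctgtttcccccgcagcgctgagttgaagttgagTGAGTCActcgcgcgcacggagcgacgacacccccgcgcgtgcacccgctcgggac
BAMBI: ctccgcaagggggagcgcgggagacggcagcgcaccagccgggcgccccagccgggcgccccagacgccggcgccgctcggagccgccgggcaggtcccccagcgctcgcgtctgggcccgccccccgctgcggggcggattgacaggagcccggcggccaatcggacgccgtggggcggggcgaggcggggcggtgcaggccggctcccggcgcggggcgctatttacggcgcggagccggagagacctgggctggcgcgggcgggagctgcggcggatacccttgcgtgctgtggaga
TGFB2: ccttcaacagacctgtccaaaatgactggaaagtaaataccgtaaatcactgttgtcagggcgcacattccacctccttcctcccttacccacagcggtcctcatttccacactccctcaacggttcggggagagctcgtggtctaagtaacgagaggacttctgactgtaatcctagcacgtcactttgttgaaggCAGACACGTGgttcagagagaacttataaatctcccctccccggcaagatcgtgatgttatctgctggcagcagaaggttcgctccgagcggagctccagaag

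In the INHBA window a CAGA box lay 27 to 32 bases after the start, and CATGTG lay on the opposite strand 41 to 46 bases after it. The FST window held an AP-1 match 160 to 154 bases before the start. The TGFB2 window held a CAGA box 53 to 48 bases before the start that overlapped a CACGTG at 49 to 44 bases before it, and the TGFBR2 window held an AP-1 match that began 6 bases before the start and ended on it. No searched motif was found in the BAMBI window or in the upstream TGFBR2 window, which is not shown. Over all 10 genes and their 13 windows, 2 genes had a CAGA box, 1 had CACGTG, 1 had CATGTG, 2 had an AP-1 match and 2 had GGAAGT. Of 35116 RefSeq windows of this length, 16.9%, 7.26%, 11.1%, 7.71% and 22.8% held them. These matches describe the letters of the windows, and no binding was measured.

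Among the ligand genes, INHBA moved with both perturbations and in opposite directions. INHBA encodes the beta A subunit, which pairs with itself to form activin A. Its level was 8.72 and 8.96 in scrambled DMSO cells, 11.59 and 11.57 in knockdown DMSO cells, 6.68 and 6.41 in scrambled PLX4032 cells, and 7.41 and 7.41 in knockdown PLX4032 cells. No 2 groups overlapped. In RNA from a whole population, as here, fewer expressing cells and less RNA per cell cannot be told apart. Knockdown raised INHBA 6.70-fold in DMSO (2.74 ± 0.11, adjusted p = 4.64e-08) and 1.82-fold in PLX4032 (0.86 ± 0.11, adjusted p = 0.000129). PLX4032 lowered it 4.91-fold in scrambled cells (-2.29 ± 0.11, adjusted p = 9.77e-08) and 18.1-fold in knockdown cells (-4.18 ± 0.11, adjusted p = 1.56e-09). The inhibitor's effect was larger in knockdown cells by 1.88 ± 0.15 on the log2 scale (interaction -1.88, adjusted p = 2.68e-05). With both perturbations INHBA stood 2.70-fold below scrambled DMSO cells (-1.43 ± 0.11, adjusted p = 1.13e-06), so its order from high to low was knockdown DMSO, scrambled DMSO, knockdown PLX4032 and scrambled PLX4032, with every neighbouring pair called.

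INHBB, which encodes the other main activin subunit, beta B, was called in no comparison. It read 6.50 and 6.21 in scrambled DMSO cells, 6.41 and 6.59 in scrambled PLX4032 cells, 6.54 and 6.58 in knockdown DMSO cells, and 6.72 and 6.43 in knockdown PLX4032 cells. The group means spanned 0.23, less than the gap between the arrays of scrambled DMSO cells or between those of knockdown PLX4032 cells. The 95% interval for knockdown in DMSO ran from -0.060 to 0.48 and that for PLX4032 in scrambled cells from -0.12 to 0.42. Both perturbations against none gave 0.23 ± 0.12, which passed the test when scrambled DMSO replicate A (0.37, adjusted p = 0.0399) or knockdown PLX4032 replicate B (0.37, adjusted p = 0.0402) was left out.

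TGFB1, the gene of TGF-beta 1, was also called in no comparison. Its arrays read 9.54 and 9.50 in scrambled DMSO cells, 9.42 and 9.25 in scrambled PLX4032 cells, 9.47 and 9.53 in knockdown DMSO cells, and 9.56 and 9.44 in knockdown PLX4032 cells. The group means spanned 0.18. The 95% intervals were -0.21 to 0.18 for knockdown in DMSO, -0.38 to 0.015 for PLX4032 in scrambled cells and -0.20 to 0.19 for PLX4032 in knockdown cells. Changes as large as those of INHBA in these comparisons lay outside these intervals.

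TGFB2, the gene of TGF-beta 2, was high in a single group. It read 4.76 and 4.57 in scrambled DMSO cells, 5.74 and 5.72 in scrambled PLX4032 cells, 4.34 and 4.35 in knockdown DMSO cells, and 4.47 and 4.58 in knockdown PLX4032 cells. Both scrambled PLX4032 arrays lay above all 6 others. PLX4032 raised TGFB2 2.08-fold in scrambled cells (1.06 ± 0.089, adjusted p = 5.21e-06), against a change of 0.17 ± 0.089 where MITF was knocked down (adjusted p = 0.169). The 2 effects differed by -0.88 ± 0.13 (adjusted p = 0.000943). Under PLX4032, knockdown cells stood 2.30-fold below scrambled cells (-1.20 ± 0.089, adjusted p = 1.91e-06). Without the inhibitor TGFB2 fell by 0.32 ± 0.089 on knockdown (adjusted p = 0.018), a call lost without scrambled DMSO replicate A (-0.23, adjusted p = 0.112), knockdown DMSO replicate A (-0.32, adjusted p = 0.0838) or knockdown DMSO replicate B (-0.32, adjusted p = 0.0864). Both perturbations against none gave -0.14 ± 0.089 (adjusted p = 0.202), called only under repeated quantile normalization (-0.25, adjusted p = 0.0255). All its values lay below the median gene (6.80 over all arrays).

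**Figure D1:**
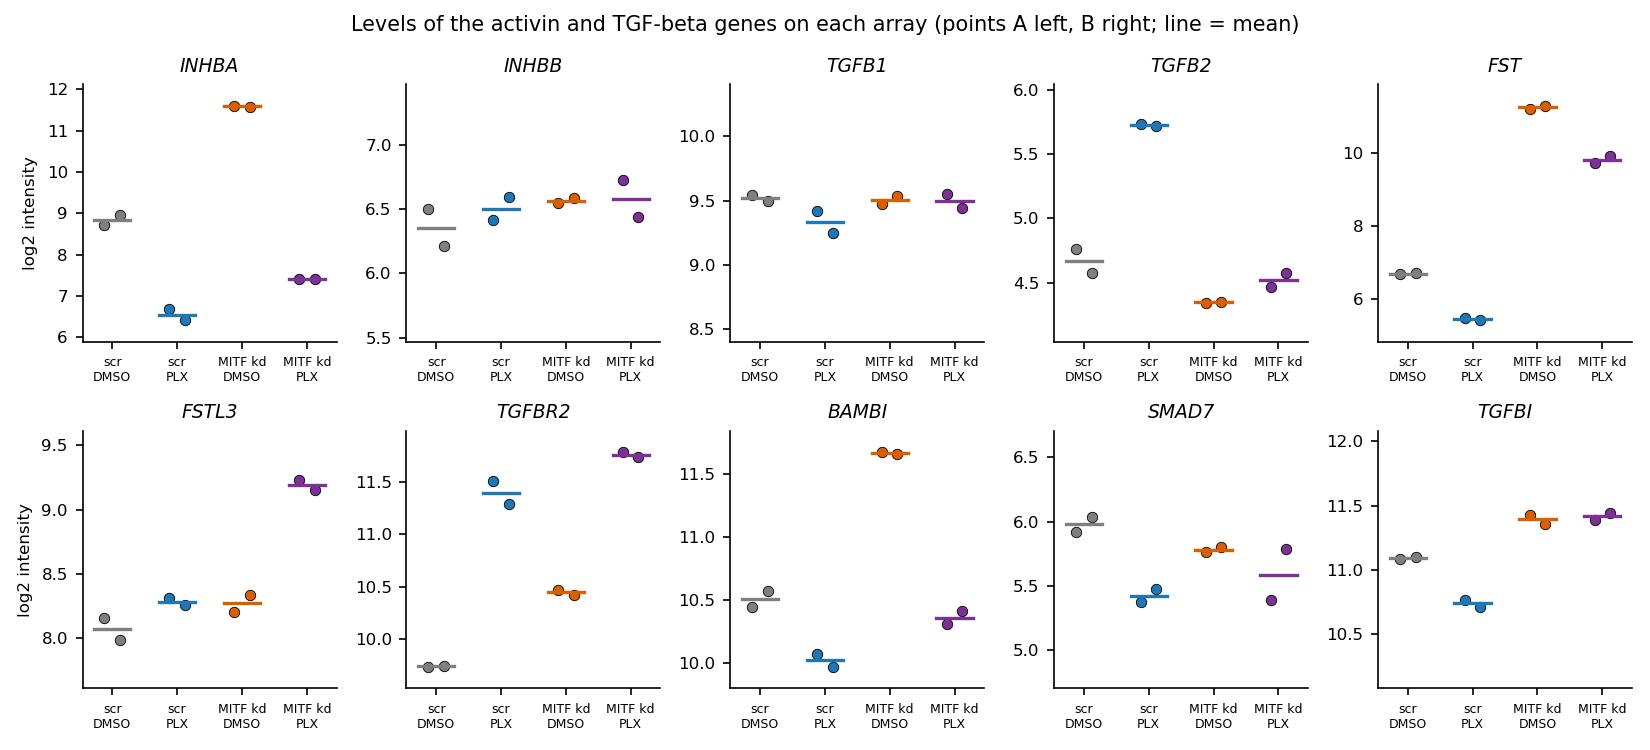
Log2 intensity (vertical axis) of the 10 genes on each of the 8 arrays, by group: scr is the scrambled hairpin, MITF kd the MITF hairpin, PLX is PLX4032; points are arrays A and B, lines are group means, and each panel has its own scale of at least 2 log2 units. INHBA, FST and BAMBI are highest in knockdown DMSO cells, TGFB2 stands out in scrambled PLX4032 cells and FSTL3 in knockdown PLX4032 cells.

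The antagonist gene FST had the widest range of the 10 genes, 5.80 between its highest and lowest group mean. FST encodes follistatin, a secreted protein that binds activin and keeps it from its receptors. The arrays read 6.68 and 6.71 in scrambled DMSO cells, 5.48 and 5.41 in scrambled PLX4032 cells, 11.20 and 11.28 in knockdown DMSO cells, and 9.71 and 9.92 in knockdown PLX4032 cells. All 4 knockdown arrays lay above all 4 scrambled arrays, and within each hairpin the PLX4032 arrays lay below the DMSO arrays. The scrambled means, 6.69 in DMSO and 5.45 in PLX4032, lay below the median gene (6.80 over all arrays). Knockdown raised FST 23.4-fold in DMSO (4.55 ± 0.091, adjusted p = 4.31e-10) and 20.6-fold in PLX4032 (4.37 ± 0.091, adjusted p = 9.93e-10). PLX4032 lowered it 2.37-fold in scrambled cells (-1.25 ± 0.091, adjusted p = 1.96e-06) and 2.69-fold in knockdown cells (-1.43 ± 0.091, adjusted p = 4.71e-07). These effects differed by -0.18 ± 0.13, with a 95% interval from -0.47 to 0.10 (adjusted p = 0.444). With both perturbations FST stood 8.70-fold above scrambled DMSO cells (3.12 ± 0.091, adjusted p = 1.99e-09), the opposite direction to INHBA in the same comparison.

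FSTL3 encodes a follistatin-like protein that also binds activin. Its arrays read 8.16 and 7.99 in scrambled DMSO cells, 8.32 and 8.26 in scrambled PLX4032 cells, 8.21 and 8.34 in knockdown DMSO cells, and 9.24 and 9.15 in knockdown PLX4032 cells. The arrays with both perturbations lay above all 6 others and the scrambled DMSO arrays lay below all 6 others, while the single perturbations overlapped each other. Neither single perturbation was called: the change was 0.20 ± 0.091 on knockdown in DMSO (adjusted p = 0.122) and 0.21 ± 0.091 with PLX4032 in scrambled cells (adjusted p = 0.104). Together they raised FSTL3 2.17-fold (1.12 ± 0.091, adjusted p = 1.95e-06). PLX4032 raised it in knockdown cells by 0.92 ± 0.091 (adjusted p = 1.44e-05), and this effect exceeded that in scrambled cells by 0.71 ± 0.13 (adjusted p = 0.00445).

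TGFBR2, the gene of the type II receptor that binds TGF-beta, was higher after each perturbation and highest after both. It read 9.73 and 9.74 in scrambled DMSO cells, 10.47 and 10.42 in knockdown DMSO cells, 11.51 and 11.29 in scrambled PLX4032 cells, and 11.79 and 11.75 in knockdown PLX4032 cells. The 4 groups did not overlap. PLX4032 raised TGFBR2 3.17-fold in scrambled cells (1.67 ± 0.090, adjusted p = 2.48e-07) and 2.50-fold in knockdown cells (1.32 ± 0.090, adjusted p = 7.68e-07). Knockdown raised it 1.64-fold in DMSO (0.71 ± 0.090, adjusted p = 0.000138). Under PLX4032 knockdown added 0.36 ± 0.090 (adjusted p = 0.0104), a call lost without scrambled PLX4032 replicate B (0.26, adjusted p = 0.0904) or knockdown PLX4032 replicate A (0.34, adjusted p = 0.0538). Both perturbations together gave a 4.09-fold rise (2.03 ± 0.090, adjusted p = 2.14e-08), the largest rise after FST among the 10 genes in that comparison. The PLX4032 effects in the 2 hairpin backgrounds differed by -0.34 ± 0.13, which was not called (adjusted p = 0.117) but was under 2 alternative settings, repeated quantile normalization (-0.40, adjusted p = 0.0258) and an intensity trend with a robust prior (adjusted p = 0.027).

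BAMBI encodes a membrane protein like a type I receptor but without the kinase, which blocks TGF-beta, activin and BMP receptors. The arrays read 10.44 and 10.57 in scrambled DMSO cells, 10.07 and 9.97 in scrambled PLX4032 cells, 11.68 and 11.66 in knockdown DMSO cells, and 10.31 and 10.41 in knockdown PLX4032 cells. The knockdown DMSO arrays lay more than 1 log2 unit above all others. Knockdown in DMSO raised BAMBI 2.24-fold (1.16 ± 0.086, adjusted p = 2.87e-06). PLX4032 lowered it 1.40-fold in scrambled cells (-0.48 ± 0.086, adjusted p = 0.00118) and 2.48-fold in knockdown cells (-1.31 ± 0.086, adjusted p = 6.23e-07), and these effects differed by -0.82 ± 0.12 (adjusted p = 0.00124). Under PLX4032 the rise on knockdown was 0.34 ± 0.086 (adjusted p = 0.0128), a call lost without scrambled PLX4032 replicate B (0.28, adjusted p = 0.0887) or knockdown PLX4032 replicate B (0.29, adjusted p = 0.076). Both perturbations against none gave -0.15 ± 0.086, which was not called (adjusted p = 0.181).

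SMAD7, the gene of an inhibitory SMAD that the pathway itself induces as feedback, changed less. It read 5.92 and 6.03 in scrambled DMSO cells, 5.37 and 5.47 in scrambled PLX4032 cells, 5.76 and 5.80 in knockdown DMSO cells, and 5.39 and 5.78 in knockdown PLX4032 cells. The last pair spanned most of the range of all 8 arrays. PLX4032 lowered SMAD7 by 0.55 ± 0.12 in scrambled cells (adjusted p = 0.00381). The change in knockdown cells was -0.19 ± 0.12 (adjusted p = 0.256), and the effects differed by 0.36 ± 0.17, which was not called (adjusted p = 0.22). Both perturbations lowered it by 0.39 ± 0.12 (adjusted p = 0.0183), a call lost without scrambled DMSO replicate B (-0.33, adjusted p = 0.0912) or knockdown PLX4032 replicate A (-0.19, adjusted p = 0.181), and in a fit of only these 4 arrays (adjusted p = 0.0605). Without knockdown PLX4032 replicate A the interaction was called instead (0.55, adjusted p = 0.0249), and without knockdown PLX4032 replicate B SMAD7 fell with PLX4032 in knockdown cells (-0.39, adjusted p = 0.0167). Knockdown in PLX4032, at 0.16 ± 0.12, was likewise called only without the former array (0.36, adjusted p = 0.0333). SMAD7 too lay below the median gene on every array.

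TGFBI encodes a secreted matrix protein named for its induction by TGF-beta. Its arrays read 11.09 and 11.10 in scrambled DMSO cells, 10.77 and 10.71 in scrambled PLX4032 cells, 11.43 and 11.36 in knockdown DMSO cells, and 11.39 and 11.45 in knockdown PLX4032 cells. All 4 knockdown arrays lay above all 4 scrambled arrays. Knockdown raised TGFBI by 0.68 ± 0.079 under PLX4032 (adjusted p = 6.81e-05) and by 0.30 ± 0.079 in DMSO (adjusted p = 0.0145). The smaller call was lost without scrambled DMSO replicate B (0.31, adjusted p = 0.0515) or knockdown DMSO replicate A (0.26, adjusted p = 0.103). PLX4032 lowered it by 0.35 ± 0.079 in scrambled cells (adjusted p = 0.00498), against 0.026 ± 0.079 where MITF was knocked down (adjusted p = 0.851). The 2 effects differed by 0.38 ± 0.11, which missed the threshold (adjusted p = 0.0514). It passed with repeated quantile normalization and with median centring (adjusted p = 0.0481 in each), without dim genes (adjusted p = 0.023) and with an intensity trend and robust prior (adjusted p = 0.00687).

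**Figure D2:**
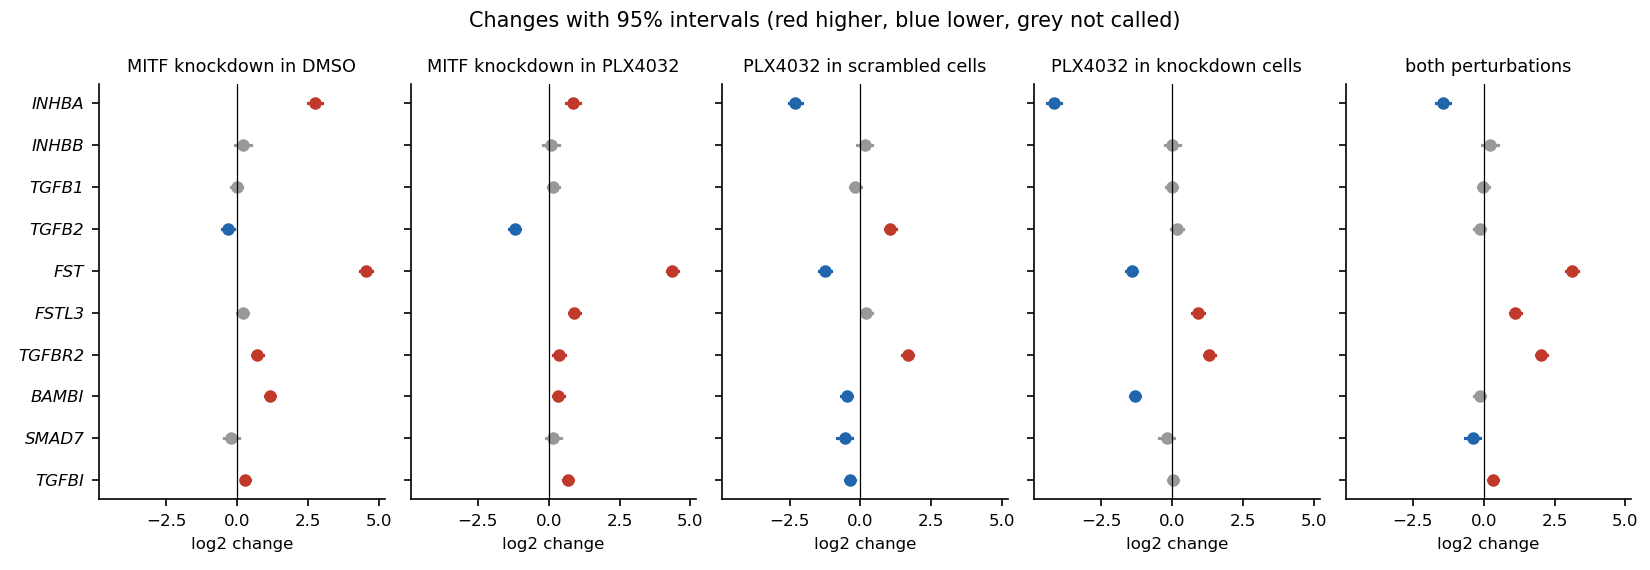
Change on the log2 scale (horizontal axis) of the 10 genes in 5 comparisons; points are changes, bars their 95% intervals from limma, red called higher, blue called lower and grey not called. FST lies far to the right in both knockdown panels, INHBA far to the left in both PLX4032 panels, and INHBB and TGFB1 are grey in all 5.

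The counts of calls among the 10 genes are a description and no test, since the genes were listed with earlier results of these data known. On knockdown in DMSO 5 rose and 1 fell, where 33.2% of all genes were called, 14.4% higher and 18.8% lower. The median change of the 10 was 0.25, against 0.020 for all genes. Without any 1 of the 8 arrays the 10 gave 4 to 6 calls. On knockdown in PLX4032 6 rose (INHBA, FST, FSTL3, TGFBR2, BAMBI and TGFBI) and 1, TGFB2, fell, against a background of 28.5%, 13.5% higher and 15% lower, and the median change was 0.35 against 0.022. The medians cover genes that moved by very different amounts, from -1.20 for TGFB2 to 4.37 for FST.

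With PLX4032 in scrambled cells 2 genes rose, TGFBR2 and TGFB2, and 5 fell, INHBA, FST, SMAD7, BAMBI and TGFBI, where 34.1% of all genes were called, 17.3% higher and 16.8% lower. The median change was -0.27 against 0.051 for all genes. In knockdown cells PLX4032 raised TGFBR2 and FSTL3 and lowered INHBA, FST and BAMBI, against a background of 33.7%, 18.6% higher and 15.1% lower. The median change there was 0.004, between changes from -4.18 to 1.32. Both perturbations against scrambled DMSO cells gave 4 rises (FST, TGFBR2, FSTL3 and TGFBI) and 2 falls (INHBA and SMAD7), where 48.6% of all genes were called, 27.1% higher and 21.5% lower. Knockdown in DMSO, PLX4032 in scrambled cells and both perturbations share the scrambled DMSO arrays, so their changes are not independent of each other.

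The design also asks whether the response to PLX4032 differed with the MITF hairpin. The PLX4032 effect differed between knockdown and scrambled cells for 4 of the 10 genes, where 11.8% of all genes were called, 6.97% higher and 4.85% lower. For INHBA and BAMBI the fall was larger in knockdown cells. For TGFB2 the rise seen in scrambled cells was smaller in knockdown cells, and for FSTL3 the rise was larger in knockdown cells. Without any 1 of the arrays 4 to 5 of the 10 were called. SPRY4, one of the outputs of BRAF signalling used as a check, also fell more in knockdown cells, by 0.80 ± 0.14 (interaction -0.80, adjusted p = 0.00416), while for DUSP6 the difference was 0.13 ± 0.12 (adjusted p = 0.556). Both INHBA and SPRY4 started higher in knockdown DMSO cells and ended at 7.41 and 6.46 in knockdown PLX4032 cells. No detection calls were used, so how far the lowest intensities lay above background is unknown.

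**Figure D3:**
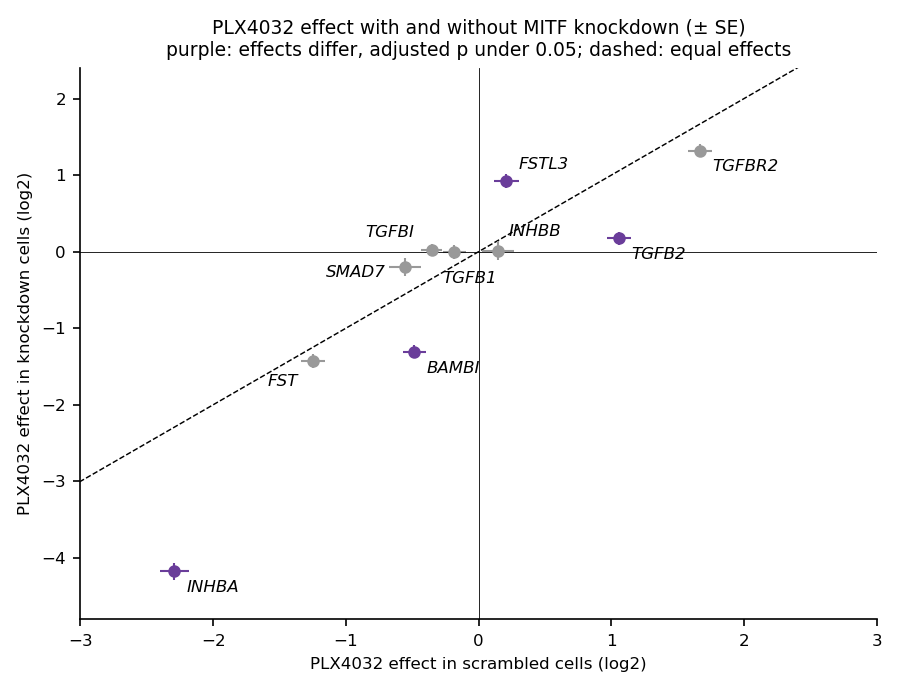
PLX4032 effect in scrambled cells (horizontal, log2) against that in knockdown cells (vertical, log2) for the 10 genes, with SE bars; the dashed line marks equal effects and purple marks a difference called at adjusted p under 0.05. INHBA and BAMBI lie below the line, TGFB2 lies below it to the right, FSTL3 lies above it, and FST lies near it.

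The levels of the 2 single perturbations were set against each other to complete the order of the groups. INHBA was 32.9-fold and FST 55.6-fold higher in knockdown DMSO than in scrambled PLX4032 cells (adjusted p = 1.05e-10 and 2.16e-11). BAMBI (1.65 ± 0.086), TGFBI (0.65 ± 0.079) and SMAD7 (0.36 ± 0.12, adjusted p = 0.038) were also higher, while TGFBR2 (-0.96 ± 0.090) and TGFB2 (-1.38 ± 0.089) were lower, where 33.1% of all genes were called, 14.2% higher and 18.9% lower. The SMAD7 call was lost when any 1 of 4 arrays of these groups was left out (0.31 to 0.41) and with repeated quantile normalization (0.31, adjusted p = 0.0978). FSTL3 (-0.013 ± 0.091), INHBB (0.065 ± 0.12) and TGFB1 (0.17 ± 0.089) were not called.

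The genes outside the list whose profile over the 8 arrays came nearest to that of INHBA, by the root mean square difference after centring each gene, were CPN1 (0.248), SERPIND1 (0.311) and CEMIP (0.403), against a spread of INHBA itself of 1.91 about its mean. CPN1, for a carboxypeptidase subunit, stood at 7.45, 4.90, 9.92 and 6.18 in scrambled DMSO, scrambled PLX4032, knockdown DMSO and knockdown PLX4032 cells. Nearest to FST, whose own spread was 2.33, were the chemokine gene CXCL10 (0.442), the integrin gene ITGA10 (0.677) and SLITRK6 (0.707). CXCL10 stood at 4.65, 4.01, 9.04 and 7.15 in the same order of groups. Nearest to BAMBI, with a spread of 0.621, were MINPP1 (0.065), FANCL (0.0802) and CMAHP (0.11). These likenesses over 8 arrays of 4 groups rest on 4 group means and describe the profiles only.

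The wider pathway was covered by 5 lists of other genes, 132 in all, of which 124 were measured (LTBP2 stands in 2 lists). Of these 124, 41 rose and 13 fell on knockdown in DMSO (33.2% of all genes called) and 41 rose and 14 fell on knockdown in PLX4032 (28.5% of all genes). With PLX4032 18 rose and 29 fell in scrambled cells (34.1% of all genes), and 27 rose and 26 fell in knockdown cells (33.7%). Both perturbations gave 47 rises and 21 falls (48.6% of all genes), and the interaction called 15 up and 10 down (11.8%). The median changes in these 6 comparisons were 0.17, 0.13, 0.039, 0.014, 0.18 and -0.024, beside 0.020, 0.022, 0.051, 0.039, 0.083 and 0.001 for all genes. Without knockdown DMSO replicate A the count on knockdown in DMSO was 35 instead of 54. The interaction count was 14 instead of 25 without scrambled PLX4032 replicate A, knockdown DMSO replicate A or knockdown DMSO replicate B.

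Among 26 other ligand genes 6 rose and 1 fell on knockdown in DMSO, where 33.2% of all genes were called, and 1 rose and 3 fell with PLX4032 in scrambled cells, where 34.1% were. TGFB3, the gene of TGF-beta 3, read 6.99 and 7.17 in scrambled DMSO cells, 6.13 and 6.06 in scrambled PLX4032 cells, 7.50 and 7.43 in knockdown DMSO cells, and 7.62 and 7.83 in knockdown PLX4032 cells. PLX4032 lowered it by 0.98 ± 0.098 in scrambled cells (adjusted p = 1.84e-05) but in knockdown cells the change was 0.27 ± 0.098 (adjusted p = 0.0586), and the difference of 1.25 ± 0.14 was called (adjusted p = 0.000182). In knockdown cells the PLX4032 change of TGFB3 was called when scrambled DMSO replicate A or B (0.27, adjusted p = 0.0464 in each) or knockdown PLX4032 replicate A (0.37, adjusted p = 0.0277) was left out. It was also called with repeated quantile normalization (0.24, adjusted p = 0.0475) and without the dimmest 40% of genes (0.27, adjusted p = 0.0299). TGFB3 was lowest in the group where TGFB2 was highest. BMP8B was also lowest in scrambled PLX4032 cells (knockdown in PLX4032 1.25 ± 0.078, interaction 0.81 ± 0.11). BMP4 rose on knockdown in DMSO by 0.87 ± 0.11 and fell with PLX4032 in knockdown cells by 0.62 ± 0.11. Its level lay below the median gene in every group, with means from 4.33 to 5.32. GDF15, a stress-induced distant member of the family, fell by 1.31 ± 0.095 with both perturbations.

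Of 15 other receptor and coreceptor genes 3 rose and 3 fell on knockdown in DMSO, beside 33.2% of all genes called, and 4 rose and 2 fell on knockdown in PLX4032, beside 28.5%. On knockdown in both backgrounds and with both perturbations the 2 largest called changes were those of TGFBR3 and ACVR1C, in opposite directions. TGFBR3 encodes betaglycan, a coreceptor that presents TGF-beta 2 to the type II receptor. It read 8.31 and 8.33 in scrambled DMSO cells, 8.41 and 8.45 in scrambled PLX4032 cells, 9.06 and 8.96 in knockdown DMSO cells, and 9.72 and 9.89 in knockdown PLX4032 cells, and rose 2.80-fold with both perturbations (1.48 ± 0.087, adjusted p = 1.48e-07). ACVR1C encodes the type I receptor ALK7. It read 7.42 and 7.65 in scrambled DMSO cells, 8.10 and 8.26 in scrambled PLX4032 cells, 6.59 and 6.28 in knockdown DMSO cells, and 5.80 and 6.04 in knockdown PLX4032 cells. Knockdown lowered ACVR1C by 1.10 ± 0.13 in DMSO (adjusted p = 7.71e-05) and by 2.25 ± 0.13 under PLX4032 (adjusted p = 2.74e-07), and the PLX4032 effect differed between hairpins by -1.15 ± 0.18 (adjusted p = 0.00182). TGFBR1, the type I partner of TGFBR2, rose by 0.65 ± 0.091 with PLX4032 in knockdown cells. BMPR1B, a BMP type I receptor, fell by 0.76 ± 0.11 with PLX4032 in scrambled cells. Its level lay below the median gene in every group, with means from 5.06 to 6.25.

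Of 29 extracellular binding and activating genes 12 rose and 2 fell on knockdown in DMSO, beside 14.4% of all genes called higher and 18.8% lower. With both perturbations 14 rose and 3 fell, beside 27.1% of all genes called higher and 21.5% lower. LTBP3, for a protein that holds latent TGF-beta in the matrix, rose by 1.16 ± 0.10 on knockdown in DMSO (adjusted p = 1.16e-05), whereas the BMP antagonist gene SOSTDC1 fell by 1.85 ± 0.11 (adjusted p = 5.87e-07). SOSTDC1 lay below the median gene in every group, with means from 4.24 to 6.53. FSTL5, a follistatin-like gene, rose with PLX4032 by 1.99 ± 0.087 in scrambled and 2.14 ± 0.087 in knockdown cells, and by 3.28 ± 0.087 with both perturbations (adjusted p = 1.08e-09). FSTL1, also of that family, rose by 1.44 ± 0.099 with PLX4032 in scrambled cells. ITGB8 encodes the beta subunit of an integrin that activates latent TGF-beta. It read 10.98 and 11.04 in scrambled DMSO cells, 9.85 and 9.88 in scrambled PLX4032 cells, 11.49 and 11.38 in knockdown DMSO cells, and 11.35 and 11.44 in knockdown PLX4032 cells. PLX4032 lowered ITGB8 by 1.15 ± 0.082 in scrambled cells (adjusted p = 1.72e-06) but its change in knockdown cells was -0.039 ± 0.082 (adjusted p = 0.78), and the difference of 1.11 ± 0.12 was called (adjusted p = 0.000121).

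**Figure D4:**
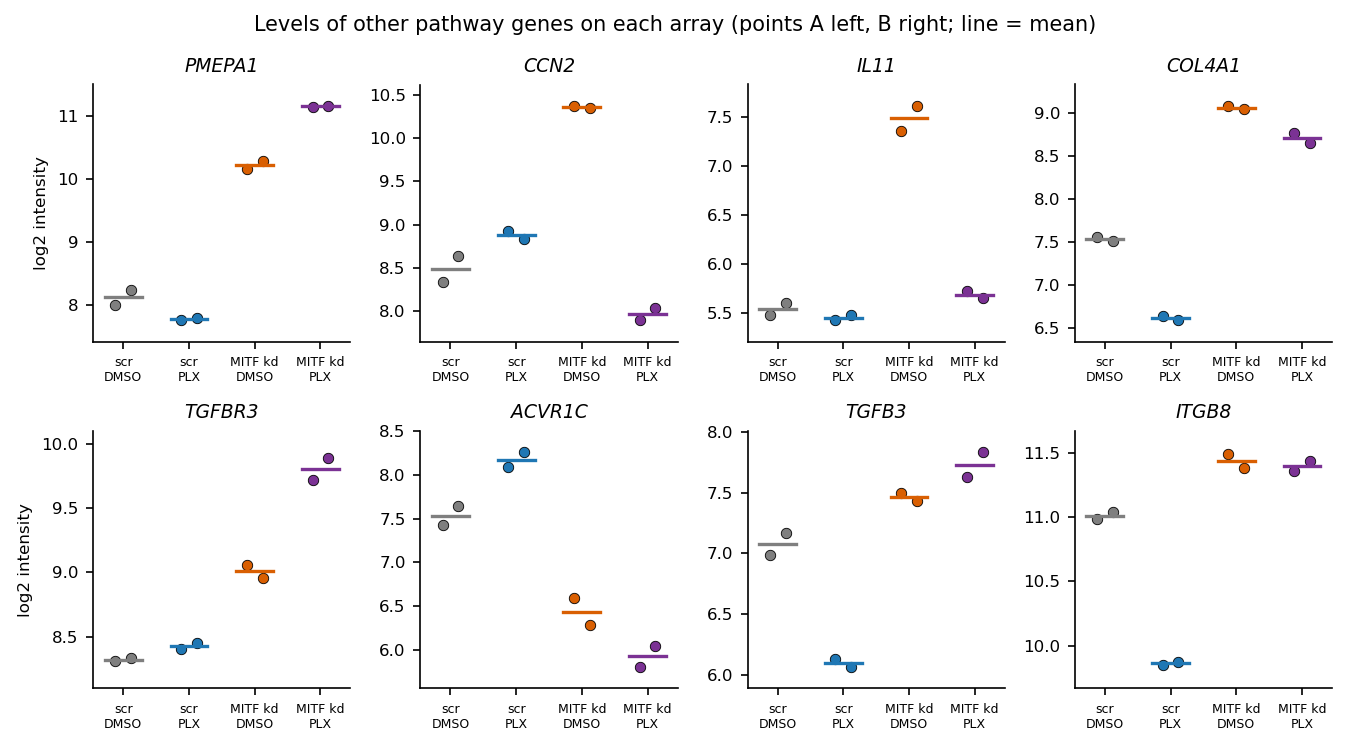
Log2 intensity (vertical axis) of 8 other pathway genes on each array, by group, drawn as in the plot of the 10 genes. PMEPA1 and TGFBR3 are highest in knockdown PLX4032 cells, CCN2 and IL11 in knockdown DMSO cells, ACVR1C is lowest with both perturbations, and TGFB3 and ITGB8 are lowest in scrambled PLX4032 cells.

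Among 23 SMADs and their regulators 3 rose and 10 fell with PLX4032 in scrambled cells, where 17.3% of all genes rose and 16.8% fell. On knockdown in DMSO 6 rose and 4 fell, where 14.4% of all genes rose and 18.8% fell. PMEPA1, a TGF-beta target whose membrane protein holds receptor-regulated SMADs away from the receptor, had the largest change of the list on knockdown in either background and with both perturbations. It read 8.01 and 8.24 in scrambled DMSO cells, 7.76 and 7.80 in scrambled PLX4032 cells, 10.16 and 10.29 in knockdown DMSO cells, and 11.15 and 11.16 in knockdown PLX4032 cells. All 4 knockdown arrays lay above all scrambled arrays, and those with PLX4032 were highest. Knockdown raised PMEPA1 by 2.10 ± 0.096 in DMSO (adjusted p = 9.43e-08) and by 3.38 ± 0.096 under PLX4032 (adjusted p = 2.38e-09), with an interaction of 1.28 ± 0.14 (adjusted p = 0.000132). SMAD7, another feedback inhibitor, was called on knockdown in neither DMSO nor PLX4032. SMAD3, a receptor-regulated SMAD of activin and TGF-beta, rose on knockdown by 0.78 ± 0.078 in DMSO and 0.91 ± 0.078 under PLX4032 (adjusted p = 2.55e-05 and 6e-06). NEDD4L, a ubiquitin ligase for activated SMADs, fell in every one of the 5 comparisons against a control group, by 2.22 ± 0.10 with both perturbations (adjusted p = 2.42e-08). SMAD6, an inhibitory SMAD of BMP signalling, rose with PLX4032 in scrambled cells by 0.97 ± 0.090, and TGIF2, a corepressor, rose with PLX4032 in knockdown cells by 1.03 ± 0.099.

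The last list held 32 measured genes reported as transcriptional targets of the pathway. On knockdown in DMSO 14 rose and 3 fell, beside 14.4% of all genes called higher and 18.8% lower. On knockdown in PLX4032 14 rose and 4 fell, beside 13.5% of all genes called higher and 15% lower. With PLX4032 5 rose and 10 fell in scrambled cells, beside 17.3% of all genes called higher and 16.8% lower, and 9 rose and 11 fell in knockdown cells, beside 18.6% and 15.1%. These targets respond to other signals as well, and they did not move as a block. COL4A1, a basement membrane collagen gene, read 7.56 and 7.51 in scrambled DMSO cells, 6.64 and 6.59 in scrambled PLX4032 cells, 9.08 and 9.05 in knockdown DMSO cells, and 8.77 and 8.65 in knockdown PLX4032 cells, and rose on knockdown under PLX4032 by 2.10 ± 0.081 (adjusted p = 1.61e-08). CCN1 rose in the same comparison by 1.99 ± 0.11 (adjusted p = 1.71e-07).

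CCN2 and the cytokine gene IL11 were highest in knockdown DMSO cells. CCN2, which encodes connective tissue growth factor, read 8.34 and 8.64 in scrambled DMSO cells, 8.92 and 8.84 in scrambled PLX4032 cells, 10.37 and 10.35 in knockdown DMSO cells, and 7.90 and 8.04 in knockdown PLX4032 cells. Knockdown raised it by 1.87 ± 0.11 in DMSO (adjusted p = 4.31e-07) and lowered it by 0.91 ± 0.11 under PLX4032 (adjusted p = 6.81e-05), an interaction of -2.78 ± 0.15 (adjusted p = 2.06e-06). IL11 read 5.48 and 5.60, 5.42 and 5.48, 7.36 and 7.61, and 5.72 and 5.65 in the same order of groups, with an interaction of -1.71 ± 0.14 (adjusted p = 2.61e-05). Its level lay below the median gene in every group but knockdown DMSO cells. CCN2 and IL11, like INHBA and BAMBI, thus had an interaction below 0, and PMEPA1, TGFB3 and ITGB8 had one above 0. SNAI1 and ANGPTL4 fell with PLX4032 in both backgrounds, by 2.11 ± 0.092 and 2.25 ± 0.099 in scrambled cells and by 2.59 ± 0.092 and 2.52 ± 0.099 in knockdown cells.

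**Figure D5:**
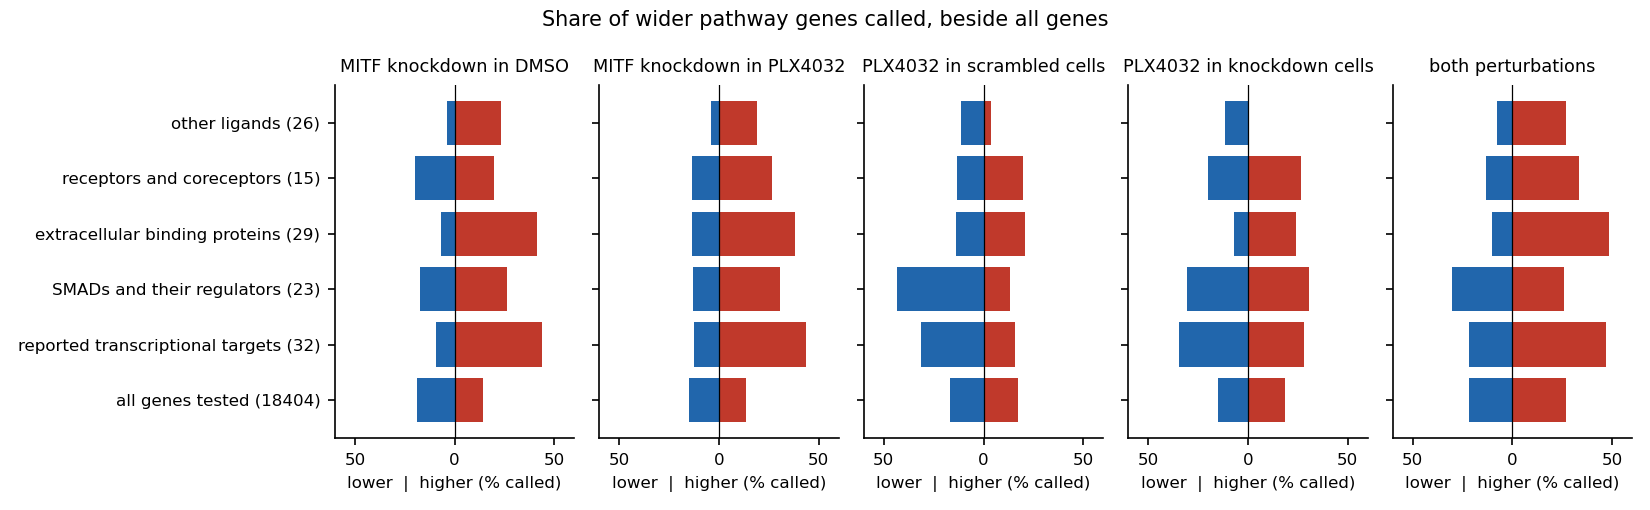
Share of each list called lower (blue, left) and higher (red, right) in 5 comparisons, as percent of the measured genes given in brackets, with all 18404 genes in the bottom row. The ligand, extracellular binding, SMAD and target lists have more rises than falls in both knockdown panels, where all genes have more falls. With PLX4032 in scrambled cells the ligand, SMAD and target lists have more falls than rises.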

How the data were processed

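RNA from 8 samples was hybridised to Affymetrix arrays, 1 per sample. The authors used RMA, of unstated version, per the submitters' processing notes. What they deposited are log2 intensities, 1 for each probe set. RMA's quantile step gives all arrays like distributions and would remove a shift shared by most genes. No build or annotation of the authors' own is given in the sources used here. Exactly 1 gene symbol was attached to 19158 of 32321 probe sets in GEO's platform annotation of 2016. The brightest set over 8 arrays stood for each of 18404 genes. No symbol changed on matching to RefSeq records (19128 matched).

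Groups were compared with limma 3.58.1 in R 4.3.3 (lmFit and eBayes over all 8 arrays with a coefficient for each group, 4 residual and 6.73 prior degrees of freedom, two-sided). Adjustment ran over all genes within each of 7 comparisons. The fit was also run on simulated data with independent noise for each array, which cannot show whether A and B are independent. No list was tested as a set. Alternatives were repeated quantile normalization, median centring, a filter on dim genes, probe sets averaged, another prior, fewer groups, the letters as a block and arrays left out in turn. The members and lists were chosen with earlier results of these data known. Wider-list genes are named from those with 1 of the 2 largest called changes of their list in a comparison, and 8 of them were picked for full levels after their values were seen. Nearest profiles are the 3 closest to INHBA, FST and BAMBI. Promoters are RefSeq sequences on GRCh38.p14, and all 10 genes matched by symbol.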

Additional observations from a re-analysis of the deposited data

Results flagged for a closer look

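The following results were singled out because the effect of PLX4032 differed between knockdown and scrambled cells by limma's test of the interaction (adjusted p under 0.05). Each value is the effect in knockdown cells minus that in scrambled cells on the log2 scale. Among the 10 pathway genes these were INHBA (-1.88 ± 0.15, adjusted p = 2.68e-05), FSTL3 (0.71 ± 0.13, adjusted p = 0.00445), TGFB2 (-0.88 ± 0.13, adjusted p = 0.000943) and BAMBI (-0.82 ± 0.12, adjusted p = 0.00124). SPRY4, an output of BRAF signalling, gave -0.80 ± 0.14 (adjusted p = 0.00416). In the wider lists, with 124 genes measured, the interaction was called higher for 15 genes and lower for 10. Over all genes 11.8% were called, 6.97% higher and 4.85% lower. Only the 2 largest called differences of each list are given here. The ligand genes were TGFB3 (1.25) and BMP8B (0.81), and the receptor genes ACVR1C (-1.15) and TGFBR3 (0.69). The extracellular genes were ITGB8 (1.11) and SOSTDC1 (1.03), and the regulator genes PMEPA1 (1.28) and TGIF2 (0.80). The target genes were CCN2 (-2.78) and IL11 (-1.71).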

How the results depend on the processing

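The 10 genes gave 70 changes over 7 comparisons, 42 of them called, under 7 other settings and with each of 8 arrays left out in turn. Those with a call lost or gained are given with each gene. With the letters A and B as a replicate block no call among the 10 changed, and 6146 genes in all were called on knockdown in DMSO, beside 6114 without it. The arrays were not treated as pairs: the labels do not say that a letter marks shared material, and A minus B differences correlated between -0.094 and 0.329 over the pairs of groups, the highest for scrambled DMSO with knockdown PLX4032 cells. Leaving out 1 array moved the calls over all genes to between 3723 (without knockdown DMSO replicate B) and 6377 on knockdown in DMSO. For the interaction they moved from 2176 to between 1278 and 2132, with 1278, 1427 and 1431 without knockdown DMSO replicate B, knockdown DMSO replicate A and scrambled PLX4032 replicate A, and the wider lists' calls there moved from 25 to between 14 and 23. Small changes, none of them called as reported, turned sign. Repeated quantile normalization gave 0.053, 0.0033 and 0.0563 for TGFB1 on knockdown in DMSO, with PLX4032 in knockdown cells and with both perturbations, -0.0085 for INHBB with PLX4032 in knockdown cells, and 0.0271 for FSTL3 between the single perturbations. Median centring gave 0.005 for TGFB1 on knockdown in DMSO, -0.0351 for INHBB and -0.0233 for TGFBI with PLX4032 in knockdown cells, and 0.0254 for FSTL3 between the single perturbations. With 1 array left out, changes on knockdown in DMSO ran from -0.045 to 0.0153 for TGFB1, and with both perturbations from -0.0779 to 0.0365. With PLX4032 in knockdown cells they ran from -0.0631 to 0.0514 for TGFB1, -0.1311 to 0.16 for INHBB, -0.3912 to 0.0014 for SMAD7, -0.0107 to 0.0631 for TGFBI and -0.0938 to 0.0156 for ITGB8. On knockdown in PLX4032 they ran from -0.0666 to 0.2245 for INHBB and -0.0333 to 0.3592 for SMAD7. The INHBB interaction ran from -0.2776 to 0.0134, and between the single perturbations INHBB ran from -0.0239 to 0.1529 and FSTL3 from -0.0779 to 0.0528. The cause was not tested. TGFB2 and SMAD7 were left out with the dimmest 40% of genes and have no value there. The interaction needs all 4 groups, so it has no value from fewer groups.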
